A study of Mus musculus with 12 samples.

Results

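Among the genes of the liver array, 10 that mark hepatic stellate cells or the fibrotic liver were followed: the fibrillar collagen genes Col1a1, Col1a2 and Col3a1, the contractile and filament genes Acta2, Des and Vim, the protease inhibitor Timp1, the growth factor Tgfb1, the receptor Pdgfrb and the secreted glycoprotein gene Reln. A gene was represented by the array feature that carries its symbol alone in the annotation of the platform, and where a gene had several, by that of highest mean signal. Each of the 10 genes had 1 such feature, out of 30142 genes with a feature of their own and 65956 transcript features in all. Signal was set against the negative control features of the same array, which match no transcript.

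Liver was collected at 12 weeks of age from 12 mice of the strain C57BL6/J, and the total RNA of each was hybridised to its own Affymetrix array. The 6 wild-type mice were ENT3 +/+ (WT) and the 6 knockout mice were ENT3 -/- (KO); ENT3, the product of Slc29a3, carries nucleosides across intracellular membranes. Each title also holds the letter M or F, read here as male or female because the design text calls the groups matched for gender, so that there were 4 groups of 3 mice: WT M (17, 23 and 33), WT F (25, 27 and 38), KO M (18, 19 and 39) and KO F (13, 40 and 69). No treatment was given in any group, all groups share strain, age and tissue, and the labels describe neither the deleted part of the gene nor the cells it was deleted in.

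Stellate cells lie between hepatocytes and the sinusoidal endothelium, and in the healthy liver they store vitamin A. On activation they lose these stores, take on contractile and filament proteins and lay down fibrillar collagen, with TGF beta and platelet-derived growth factor (PDGF) as the best known signals. Several of the genes are not theirs alone: Vim is also made by leukocytes and endothelial cells, Tgfb1 by macrophages and platelets, and Acta2 and Des by vascular smooth muscle.

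The values are log2 signals as deposited, and the number of arrays limits the precision. Slc29a3 was at 4.82 to 5.29 in the 6 WT livers and at 4.10 to 4.19 in the 6 KO livers, all within the range of the negative controls, with a difference of -0.94 ± 0.07 (SE, limma adjusted p = 0.000324). Of 7 measured hepatocyte markers, all lay above the negative controls on every array, and 5, Alb among them, were at the ceiling of 19.93. The 95th percentile of the 5222 negative controls ran from 6.20 to 6.83 between arrays, and their median was higher in KO by 0.14 (exact permutation within letters, two-sided p = 0.005, the smallest that 400 arrangements give). The 4 poly-A spike features, bacterial RNAs added before labelling, averaged 5.10 to 6.06 on KO and 5.98 to 6.81 on WT arrays (exact permutation p = 0.005). These differences between the arrays of the genotypes stand beside every result that follows, and their part in it was not tested. Because the poly-A level differed with genotype, a fit with it as a covariate separates the level from genotype only poorly. The labels do not say more of the separate origin of the mice than their numbers, so p-values measure the spread between these 12 samples.

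Of the 10 stellate cell and fibrosis genes, Vim and Tgfb1 were higher in KO livers, and the 3 fibrillar collagen genes, Acta2, Des, Timp1, Pdgfrb and Reln did not pass the test. Over both letters 2 of the 10 were called at an adjusted p under 0.05, where 9.75% of all features were called, and both were higher, where 5.28% were. Vim differed by 1.79 ± 0.33 (SE) on the log2 scale (limma adjusted p = 0.00785), and Tgfb1 by 0.60 ± 0.15 (limma adjusted p = 0.029). The difference in Vim is 3.45-fold if the deposited scale is plain log2 intensity. The sources used here do not say whether that scale was stretched in processing. Vim in WT was close to the negative controls, above 95.6% to 97.0% of them, so the fold is not exact. In F mice the same 2 genes were called as higher, where 6.19% of features were called and 3.13% were called as higher. At an unadjusted p under 0.05 were 6 of the 10 genes, a level to which those shares do not apply. The largest of these 6 p-values, that of Pdgfrb (limma unadjusted p = 0.0366), ranked only 11777 among the 65956 features. In M mice none of the 10 was called by limma, with 1 at an unadjusted p under 0.05, and 1.09% of features were called. The median difference of the 10 genes was 0.13 over both letters, 0.31 in F and -0.02 in M, against 0.05, 0.07 and 0.03 over all features.

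**Figure D1:**
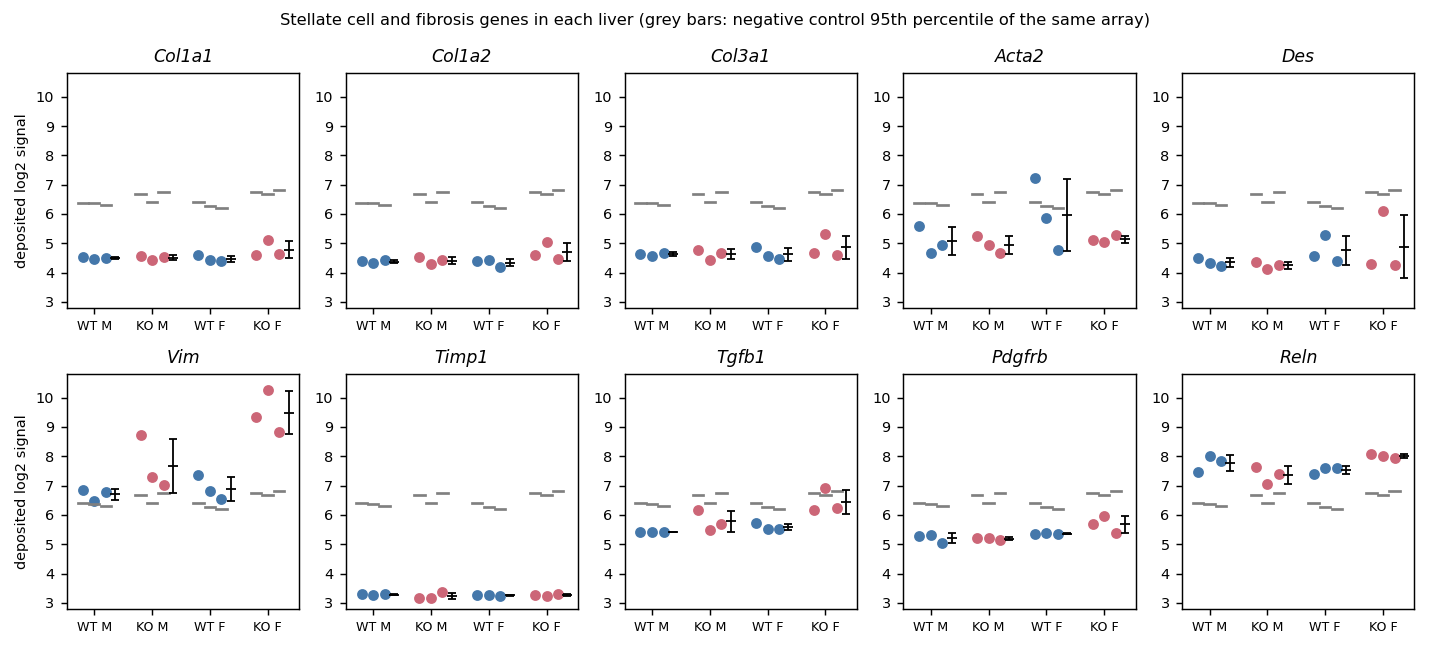
Deposited log2 signal (vertical axis) of the 10 genes in each of the 12 livers, by genotype and title letter (blue WT, red KO); a black bar and whiskers give the mean and SD of 3 mice, and grey bars the 95th percentile of the negative controls on that array. Vim and Reln lie above the grey bars on all 12 arrays, and the other 8 genes lie below them on nearly all.

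Most of the 10 genes gave little signal in these livers. Vim and Reln lay above the 95th percentile of the negative controls on all 12 arrays. Acta2 did so on 1 array (WT F 25), Tgfb1 on 1 (KO F 40) and the other 6 on none. The share of all 65956 features with the 3 mice of at least 1 group above that level was 14.9%. Timp1 was the dimmest against its array, above only 18.8% to 27.7% of the negative controls, whereas Col1a1, Col1a2 and Col3a1 lay above 64.8% to 83.6% of them. For the 8 dim genes a size on the log2 scale is not exact, and no fold is given. In bulk liver, fewer cells of a type and less RNA per cell cannot be told apart.

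Tgfb1 encodes the TGF beta form best known for driving matrix production; the protein is secreted in a latent complex and activated outside the cell. Its signal was 5.43, 5.42 and 5.43 in WT M 17, 23 and 33, and 5.71, 5.54 and 5.54 in WT F 25, 27 and 38. In KO M 18, 19 and 39 it was 6.18, 5.48 and 5.70, and in KO F 13, 40 and 69 it was 6.17, 6.91 and 6.24. All KO mice of a letter lay above all WT mice of that letter, and KO F 40 was the highest of the 12. The difference was 0.84 ± 0.21 in F (limma adjusted p = 0.0411) and 0.36 ± 0.21 in M (limma adjusted p = 0.541), and the means were 5.59 ± 0.10 (SD, n = 3) in WT F and 6.44 ± 0.41 (SD, n = 3) in KO F.

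The call of Tgfb1 depended on single mice. Over both letters it was lost without any one of WT M 17, 23 or 33, WT F 27 or 38, or KO M 18 (adjusted p from 0.0524 to 0.0698), with no term for the letter (0.0865), with arrays centred on their negative controls (0.0558) and with the poly-A level as a covariate (0.794), while the difference stayed between 0.46 and 0.68. In F it was lost without any one of WT M 17, 23 or 33, WT F 25, 27 or 38, KO M 39 or KO F 40 or 69 (adjusted p up to 0.133).

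Receptors and regulators of the pathway moved as follows. Of 28 further TGF beta pathway genes, all measured, 4 were higher and 1 lower in KO over both letters, where 9.75% of all features were called, and their median was 0.06 against 0.05 for all features. With arrays centred on their negative controls 4 were higher and 3 lower, and the median was -0.07 where that of all features was -0.09. Skil, a nuclear co-repressor of Smad proteins that TGF beta induces, differed by 1.31 ± 0.12 (limma adjusted p = 0.000575). Its signal was 6.42 to 6.79 in the 6 WT mice, 6.89 to 7.64 in KO M and 8.32 to 8.72 in KO F, with no overlap of the genotypes.

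Tgfbi, a secreted matrix protein named for its induction by TGF beta, was at 9.83 to 10.29 in WT, 9.88 to 11.58 in KO M and 11.99 to 12.65 in KO F (1.35 ± 0.26, limma adjusted p = 0.0104). Ccn2, connective tissue growth factor, differed by 0.59 ± 0.09 (adjusted p = 0.00366), within the range of the negative controls on all arrays. Outside the rule for naming genes and picked after their values were seen, the ligand-binding receptor Tgfbr2 was higher by 1.14 ± 0.22 (adjusted p = 0.0108) and the signal transducer Smad3 differed by -0.18 ± 0.05 (adjusted p = 0.0369), also dim throughout. Smad3 lost its call without any one of 11 of the 12 mice, KO M 39 being the exception (adjusted p up to 0.0876). In M mice none of the 28 passed limma's test, where 1.09% of all features did, with 6 at an unadjusted p under 0.05.

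Pdgfrb, the PDGF receptor of stellate cells and pericytes, was at 5.28, 5.33 and 5.04 in WT M and 5.35, 5.40 and 5.34 in WT F. It was at 5.20, 5.22 and 5.15 in KO M and 5.68, 5.96 and 5.39 in KO F, always in the order of animal numbers given above. The genotypes overlapped in both letters, and the difference was 0.14 ± 0.09 over both (limma adjusted p = 0.394) and 0.31 ± 0.13 in F (0.205). Of 8 measured PDGF pathway genes, 1 was called, where 9.75% of all features were. This was Grb2, the adaptor that links receptor tyrosine kinases to Ras, higher by 0.42 ± 0.09 (limma adjusted p = 0.0199). Grb2 was at 0.86 ± 0.13 in F (limma adjusted p = 0.00631) and -0.03 ± 0.13 in M (0.972). Its call over both letters was lost without WT M 33 or KO M 18 (limma adjusted p up to 0.052) and with arrays centred on either median. Lower calls appeared in the list under other scalings, 2 after quantile normalization, 1 with arrays centred on the transcript median and 3 with arrays centred on negative controls, and with dim features left out or without WT F 27 there were 2 higher calls. The ligand gene Pdgfd was at -0.32 ± 0.10 (adjusted p = 0.0724) and the phosphatase Ptpn11 at 0.30 ± 0.10 (0.0989), and all 4 PDGF ligand genes lay within the negative controls.

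Vim and Des encode related intermediate filament proteins, both classical stellate cell markers in rodents. Vim was at 6.84, 6.48 and 6.78 in WT M 17, 23 and 33, and at 7.35, 6.80 and 6.54 in WT F 25, 27 and 38. It was at 8.73, 7.28 and 7.03 in KO M 18, 19 and 39, and at 9.35, 10.28 and 8.84 in KO F 13, 40 and 69. Within each letter the genotypes did not overlap, with KO above WT; across letters, KO M 19 and 39 lay below WT F 25. Group means were 6.70 ± 0.19 (WT M), 6.90 ± 0.41 (WT F), 7.68 ± 0.92 (KO M) and 9.49 ± 0.73 (KO F, all SD, n = 3).

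The difference in Vim was 2.59 ± 0.46 in F (limma adjusted p = 0.0118), or 6.04-fold on the same reading of the scale and with the same limit. In M it was 0.98 ± 0.46 (limma adjusted p = 0.416, 95% confidence interval -0.05 to 2.01). The difference between these, 1.61 ± 0.65, was not called (limma adjusted p = 0.702). Over both letters the call held without any one mouse (1.52 to 1.95, limma adjusted p from 0.00839 to 0.024). It was lost with the poly-A level as a covariate (1.88 ± 0.85, limma adjusted p = 0.557), where 3 features in all were called. That level was itself lower on KO arrays, so this fit separates it from genotype only poorly. In F the call of Vim was lost without WT F 38 (limma adjusted p = 0.0527).

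The sequence before the start of Vim is shown because Vim had the largest difference of the 10, and that of Tgfb1 because it was called with it. Each runs 5′ to 3′ over the 250 bases before the transcription start, from RefSeq on build GRCm38.p6, with capitals at letters that match a searched motif on either strand. Vim lies at chr2:13574061-13574310 on the plus strand and Tgfb1 at chr7:25686752-25687001 on the plus strand.
Vim: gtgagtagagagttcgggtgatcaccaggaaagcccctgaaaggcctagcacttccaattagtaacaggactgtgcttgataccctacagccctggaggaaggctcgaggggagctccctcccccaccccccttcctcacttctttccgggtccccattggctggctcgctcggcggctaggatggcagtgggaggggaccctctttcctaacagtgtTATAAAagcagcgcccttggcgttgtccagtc
Tgfb1: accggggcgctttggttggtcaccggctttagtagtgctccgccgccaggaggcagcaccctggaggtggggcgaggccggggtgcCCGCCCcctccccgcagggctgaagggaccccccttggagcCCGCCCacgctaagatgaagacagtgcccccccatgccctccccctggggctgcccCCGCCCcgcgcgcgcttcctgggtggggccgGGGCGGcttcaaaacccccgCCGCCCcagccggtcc
The motifs searched were the AP-1 site TGANTCA, the SP1 site GGGCGG, the Smad box CAGAC, the TATA box TATAAA and the CArG box of serum response factor. They stood in 6.75%, 32.7%, 42.2%, 12.4% and 1.47% of all 32851 windows of this length. Vim held 1 TATA box, starting 32 bases before the start, and Tgfb1 held 5 SP1 sites and no TATA box. Neither window shared a motif with the other, and base composition differed, with 58.4% G and C before Vim and 75.2% before Tgfb1. A match is a description of letters and not a bound site.

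Des, the muscle-type filament of the pair, was at 4.51, 4.32 and 4.22 in WT M, 4.57, 5.30 and 4.40 in WT F, 4.38, 4.12 and 4.25 in KO M and 4.28, 6.12 and 4.25 in KO F. KO F 40 and WT F 27 stood above the other 10 mice, and the genotypes overlapped. The difference was 0.01 ± 0.31 (limma adjusted p = 0.989), and it was -0.29 ± 0.15 without KO F 40 (adjusted p = 0.302). Of 8 other intermediate filament genes and their partners, Krt8 was the 1 called, where 9.75% of all features were. It was lower in KO, with a difference of -1.08 ± 0.23 (limma adjusted p = 0.0162). Krt8 and Krt18 form the keratin filaments of hepatocytes; Krt18 was at -0.65 ± 0.19 (0.0611), and Syne1, a nuclear envelope partner, at 0.37 ± 0.10 (0.0529). Krt8 was not called without KO M 19 and WT F 38 together. The number called lower was 2 after quantile normalization, with dim features left out or without WT M 23, 3 with arrays centred on the transcript median and 4 with arrays centred on negative controls. The number called higher was 1 without WT F 25 or KO M 39, with no term for the letter, with dim features left out or with the mean of all features of a gene, and 2 without KO F 40.

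**Figure D2:**
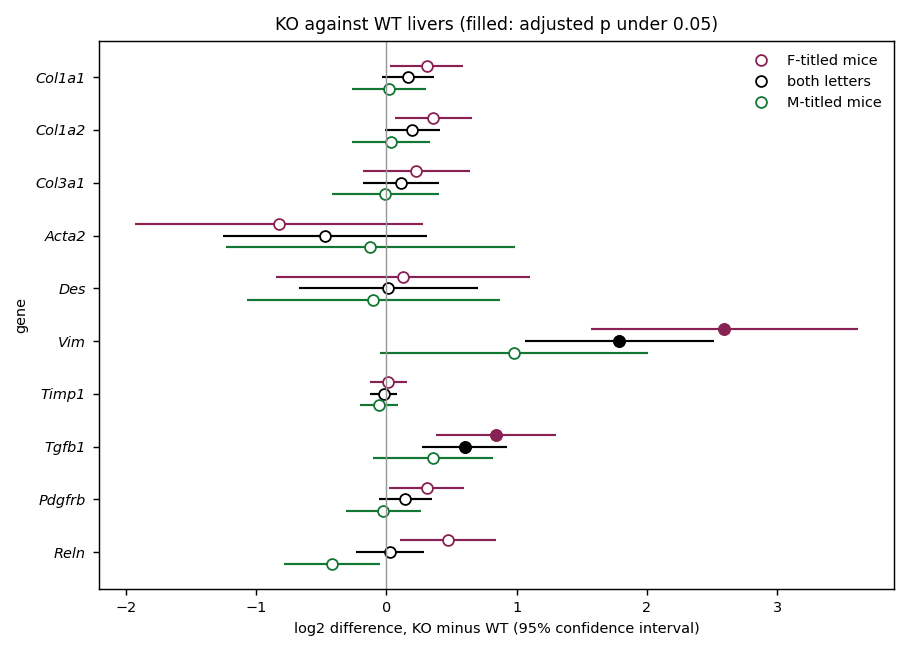
Difference in log2 signal, KO minus WT (horizontal axis), for the 10 genes over both letters and within F and M, with 95% confidence intervals of the limma fit; filled points have an adjusted p under 0.05. Vim and Tgfb1 are filled over both letters and in F, and no gene is filled in M.

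Acta2, the smooth muscle actin that is the usual sign of an activated stellate cell, had a lower mean in KO and did not pass the test. It was at 5.60, 4.68 and 4.94 in WT M, 7.23, 5.87 and 4.78 in WT F, 5.26, 4.94 and 4.66 in KO M and 5.10, 5.03 and 5.28 in KO F. The highest 3 of the 12 were WT mice (F 25, F 27 and M 17), and the 6 KO livers kept within 4.66 to 5.28. The difference was -0.47 ± 0.35 over both letters (limma adjusted p = 0.477) with an interval of -1.26 to 0.31, and -0.16 without WT F 25.

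None of 12 smooth muscle and contractile genes was called by limma over both letters, in F or in M. Of all features 9.75%, 6.19% and 1.09% were called in these comparisons. In each, 0 of the 12 had an unadjusted p under 0.05, and 10 of them lay within the negative controls on all arrays. With arrays centred on negative controls 1 was called lower. Their mean signal was 5.01 in KO F 40, 4.95 in WT F 25 and 4.88 in WT F 27, and 4.56 to 4.69 in the other 9 mice (exact permutation of genotype within letters p = 1). Of these mice KO F 40 and WT F 27 were also the highest for Des, and WT F 25 and 27 for Acta2. KO F 40, the highest in the list, was at rank 7 of 12 for Acta2 (5.03). WT M 17, at rank 3 for Acta2 (5.60), was at rank 8 in the list (4.64). The part of vessel muscle in the values of Acta2 and Des was not tested.

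Col1a1 and Col1a2 encode the chains of type I collagen, the main fibre of scar, and Col3a1 that of type III. Col1a1 was at 4.53, 4.47 and 4.48 in WT M, 4.59, 4.44 and 4.40 in WT F, 4.58, 4.44 and 4.53 in KO M and 4.60, 5.12 and 4.63 in KO F. Col1a2 was at 4.39, 4.33 and 4.42 in WT M, 4.40, 4.42 and 4.21 in WT F, 4.53, 4.28 and 4.42 in KO M and 4.62, 5.03 and 4.47 in KO F. Both genes had the 3 KO F mice above the 3 WT F mice, led by KO F 40, and overlapped in M.

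The differences were small and not called. In F they were 0.31 ± 0.13 for Col1a1 (limma adjusted p = 0.202) and 0.36 ± 0.13 for Col1a2 (adjusted p = 0.155), and without KO F 40 they were 0.14 and 0.20. Over both letters they were 0.16 ± 0.09 (adjusted p = 0.315) and 0.20 ± 0.09 (0.244), with intervals of -0.04 to 0.36 and -0.01 to 0.41. Col3a1 ran from 4.44 to 4.88 in 11 mice and was 5.32 in KO F 40; its difference was 0.11 ± 0.13 (adjusted p = 0.677), and -0.0032 without that mouse. The signals of the 3 genes were within the negative controls everywhere, where the median of these controls was itself higher in KO by 0.14.

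Other matrix genes were called about as often as all features, of which 9.75% were called. Of 22 measured collagens and collagen-processing enzymes, 2 were higher in KO and none lower, and 17 were within the negative controls on all arrays. Their median difference was 0.05, as over all features; it was -0.04 after quantile normalization, where that of all features was -0.01, and -0.09 with arrays centred on the negative controls, as over all features. The mean signal of the list was 4.95 to 5.08 in WT, 5.03 to 5.12 in KO M and 5.16 to 5.20 in KO F, and all KO mice of a letter lay above all WT mice of that letter. It was higher in KO by 0.09 (exact permutation within letters p = 0.005, 0.0213 after adjustment over 17 lists), while the median of the negative controls was higher by 0.14. The 2 were the chains of basement membrane collagen IV, Col4a1 (0.35 ± 0.06, limma adjusted p = 0.00463) and Col4a2 (0.21 ± 0.05, 0.0209), both dim. Col4a1 kept its call without any one mouse, and Col4a2 lost it without WT M 23 or 33 (up to 0.0536), after quantile normalization and with arrays centred on either median. Col14a1, a fibril-associated collagen with clear signal, was at 7.55 to 7.75 in WT M, 7.39 to 8.02 in WT F, 7.39 to 8.11 in KO M and 8.50 to 9.73 in KO F. It was higher in F by 1.24 ± 0.31 (adjusted p = 0.041) and not called over both letters (0.66 ± 0.22, adjusted p = 0.0881).

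Of 21 matrix glycoproteins and proteoglycans, 2 were higher and none lower, where 9.75% of all features were called. Their median was 0.07 against 0.05 for all features. With arrays centred on the negative controls 2 were higher and 2 lower, with a median of -0.06 against -0.09. Without WT F 25, 1 was called lower, and without KO F 40, 3 were called higher. Postn, a matricellular protein of fibroblasts, ran from 6.15 to 6.78 in WT, 6.67 to 7.78 in KO M and 7.32 to 8.24 in KO F (0.96 ± 0.22, limma adjusted p = 0.0211, up to 0.0557 without WT M 23 or KO F 69). Nid1, a basement membrane linker, was higher by 0.96 ± 0.23 (0.0267), with 1.52 in F and 0.39 in M, and lost its call without any one of 8 mice (WT M 17, 23 and 33, WT F 27 and 38, KO M 18 and 19, KO F 69). The laminin chain Lamc1 was at 0.27 ± 0.08 (0.0602). With no term for the letter Col4a1, Col4a2, Postn and Nid1 were not called.

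Timp1, the inhibitor of matrix metalloproteinases that rises early in most models of liver fibrosis, showed no difference that these arrays could resolve. It was at 3.30, 3.27 and 3.29 in WT M, 3.27, 3.26 and 3.23 in WT F, 3.16, 3.17 and 3.36 in KO M and 3.28, 3.24 and 3.30 in KO F. All 12 values lay below the median of the negative controls, and the difference was -0.02 ± 0.05 (limma adjusted p = 0.843). Of 16 other matrix proteases and inhibitors, Mmp8 was higher and Mmp19 lower, where 9.75% of all features were called. Mmp8, the collagenase of neutrophils, ran from 3.72 to 3.96 in WT, 4.15 to 6.97 in KO M and 5.85 to 6.96 in KO F (2.07 ± 0.41, limma adjusted p = 0.0117), a size that is not exact because all WT values were dim. Mmp19, a metalloproteinase with clear signal on every array, had a difference of -1.21 ± 0.12 (0.000697) and was called in both F and M. Mmp9, the gelatinase of leukocytes, was at 0.69 ± 0.19 (0.0506). Of the 16, 3 were called lower with arrays centred on negative controls, and 2 were called higher with no term for the letter, with an intensity trend, or without KO M 18, KO M 39 or KO F 40.

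Reln encodes reelin, a large secreted glycoprotein that stellate cells produce in liver and that binds the receptors Vldlr and Lrp8. It was at 7.48, 8.01 and 7.84 in WT M, 7.38, 7.61 and 7.61 in WT F, 7.64, 7.04 and 7.40 in KO M and 8.08, 8.01 and 7.93 in KO F. All 3 KO F mice lay above all 3 WT F mice, whereas in M the KO mice were lower on average and overlapped with WT M 17. The difference was 0.47 ± 0.17 in F (limma adjusted p = 0.135) and -0.42 ± 0.17 in M (adjusted p = 0.32), and over both letters 0.03 ± 0.12 (adjusted p = 0.922).

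The difference between the letters was 0.89 ± 0.23 for Reln (limma adjusted p = 0.429, 95% confidence interval 0.37 to 1.41). For that contrast limma called 0 of the 10 genes, with Reln and Vim at an unadjusted p under 0.05, and 0.00152% of all features, which is 1 feature. Of 5 further reelin pathway genes, 1 was called over both letters, where 9.75% of all features were. This was Fyn, a Src family kinase also used by lymphocytes and platelets, higher by 0.84 ± 0.13 (limma adjusted p = 0.00343). Vldlr, the reelin receptor, was lower in F by 1.01 ± 0.22 on the log2 scale (limma adjusted p = 0.0276) and was at -0.56 ± 0.16 over both letters (0.0504). Over both letters it was called, as lower, after quantile normalization, with arrays centred on either median, and without WT M 17, WT F 25 or WT F 38 (also without WT F 38 and KO M 19 together). Src was at 0.10 ± 0.05 (0.224), and at -0.04 with arrays centred on negative controls. Both Src and Vldlr lay within these controls on all arrays. Fyn lay within them on all WT arrays, so the size of its difference is not exact.

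The window before the start of Reln is shown because Reln had clear signal in every liver and opposite signs in the letters. It lies at chr5:22344706-22344955 on the minus strand and is printed in the same way.
Reln: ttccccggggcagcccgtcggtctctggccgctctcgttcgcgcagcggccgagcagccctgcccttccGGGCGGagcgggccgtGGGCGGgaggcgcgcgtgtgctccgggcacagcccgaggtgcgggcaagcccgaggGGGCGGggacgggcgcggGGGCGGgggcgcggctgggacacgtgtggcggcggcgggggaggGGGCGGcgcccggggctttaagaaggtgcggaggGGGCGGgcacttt
It held 6 SP1 sites and no other searched motif, with 80% G and C.

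Averaged over genotypes, all 10 genes had a positive difference of F minus M, as had 57.6% of features. None was called by limma, with 3 at an unadjusted p under 0.05, and 1.23% of features were called. Those 3 were Vim (1.0 ± 0.33, adjusted p = 0.212), Pdgfrb (0.32 ± 0.09, 0.155) and Tgfb1 (0.41 ± 0.15, 0.257). In KO mice the F mean was above the M mean for all 10 genes. In WT mice it was so only for Acta2, Des, Vim, Tgfb1 and Pdgfrb. WT means in M and F were 4.49 and 4.47 for Col1a1, 4.38 and 4.34 for Col1a2, and 4.63 in both for Col3a1. They were 3.29 and 3.26 for Timp1, and 7.78 and 7.53 for Reln. Vim averaged 6.70 in WT M and 6.90 in WT F, against 7.68 in KO M and 9.49 in KO F.

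The 10 genes did not share 1 pattern across mice. KO F 40 was the highest of the 12 for 7 of them (Col1a1, Col1a2, Col3a1, Des, Vim, Tgfb1 and Pdgfrb), WT F 25 for Acta2, KO M 39 for Timp1 and KO F 13 for Reln. Likeness of pattern was measured as the root mean square difference of log2 values over the 12 arrays, each gene centred on its mean, among 5006 candidate genes with signal. Nearest to Vim, whose own SD was 1.27, were the chromatin protein gene Hmgb2 (0.24) and the actin cross-linker gene Flna (0.27). Both were picked by closeness to Vim on the same arrays, so their differences between genotypes (1.58 ± 0.26 and 2.0 ± 0.34) follow from the choice. Hmgb2 and Flna lay within the negative controls on all WT arrays. Nearest to Reln, with an SD of 0.31, were the transcription factor gene Atoh8 (0.15) and Cdc42ep1 (0.18), an effector of the GTPase Cdc42.

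Markers of quiescent stellate cells were detectable in part. Of 16 measured, 7 were above the negative controls on at least 1 array, among them Lrat, which makes retinyl esters, Hgf, Colec10, Colec11 and Rgs5. None was called by limma over both letters, where 9.75% of all features were, and 3 had an unadjusted p under 0.05. The median was -0.04, moving to -0.18 with arrays centred on the negative controls, where 3 were called lower. After quantile normalization or with arrays centred on the transcript median 2 were called lower, and without KO M 39 or KO F 40, 1 was. Outside the rule for naming genes and picked later, Lrat averaged 7.13 in WT and 6.73 in KO (-0.40 ± 0.28, limma adjusted p = 0.446). Its highest value, 7.61, was in KO F 40. Picked in the same way, Hgf was at -0.27 ± 0.20 (limma adjusted p = 0.483) and Colec11 at 0.30 ± 0.23 (0.503). The smallest p-values were those of Ngfr (-0.22 ± 0.07, 0.0838), Cygb (-0.16 ± 0.07, 0.168) and Colec10 (0.39 ± 0.16, 0.173). Of 10 markers of portal fibroblasts and mesothelium, 0 were called by limma over both letters, where 9.75% of all features were. Of these markers 1 had an unadjusted p under 0.05, and all lay within the negative controls. With arrays centred on these controls 1 was called lower.

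**Figure D3:**
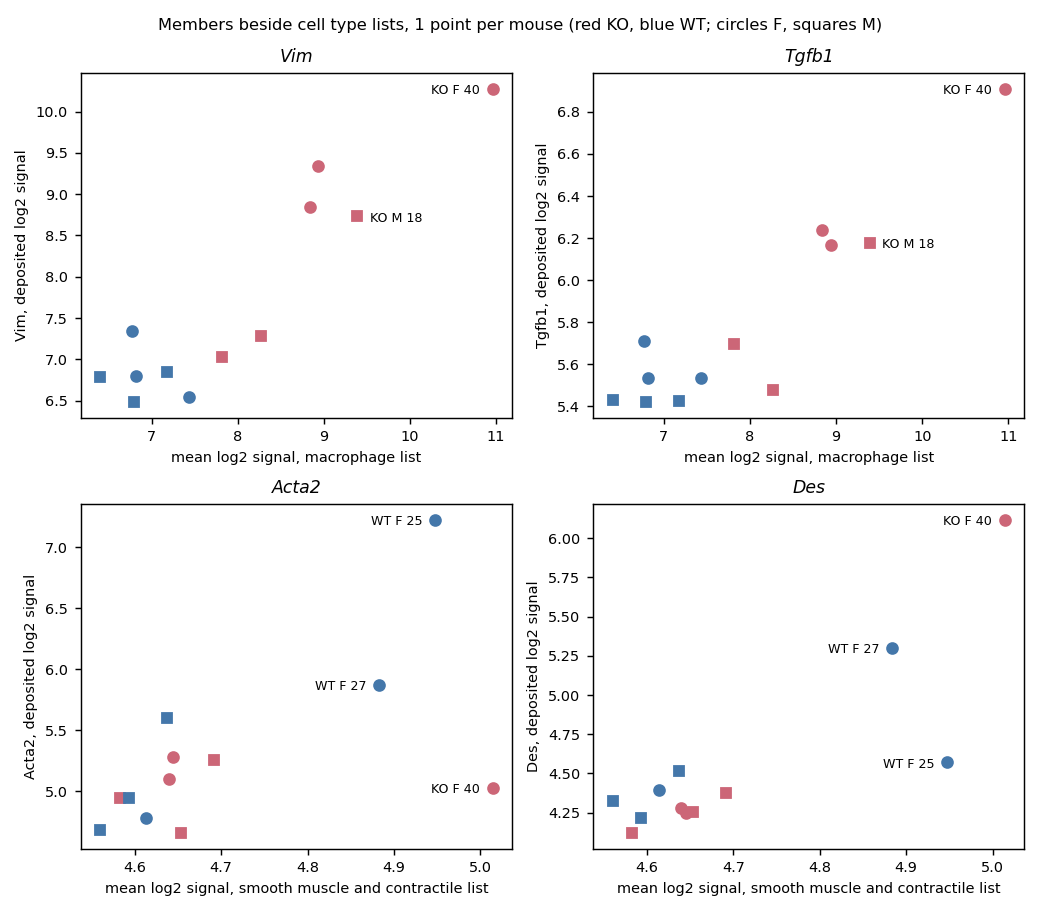
Deposited log2 signal of Vim and Tgfb1 (vertical axes, upper panels) against the mean log2 signal of 14 macrophage markers, and of Acta2 and Des (lower panels) against that of 12 smooth muscle genes, with 1 point per mouse (red KO, blue WT, circles F, squares M). KO F 40 is at the far right of all 4 panels, and highest for Vim, Tgfb1 and Des.

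Macrophage, neutrophil, platelet and some endothelial markers moved with genotype in the same livers. Of 14 macrophage markers 8 were higher in KO over both letters and none lower, where 5.28% of all features were called as higher. In M limma called none of the 14, where 1.09% of all features were called, and 8 had an unadjusted p under 0.05. Their median difference was 2.01, and Ccr2, Trem2 and Gpnmb lay within the negative controls. The mean of the list was 6.40 to 7.43 in WT mice, 7.81 to 9.39 in KO M and 8.83 to 10.96 in KO F, without overlap of the genotypes (exact permutation p = 0.005, 0.0213 after adjustment over 17 lists). In order it ran from KO F 40 (10.96) over KO M 18 (9.39), KO F 13 (8.93), KO F 69 (8.83) and KO M 19 (8.27) to KO M 39 (7.81). Vim was likewise highest in KO F 40 and, among KO M mice, in KO M 18, and so was Tgfb1. KO M 18, at rank 2 in the list, was at rank 4 for Vim and rank 3 for Tgfb1. Tgfb1 was lower in KO M 19 (5.48) than in KO M 39 (5.70), the reverse of the list. KO F 40 was also the highest mouse for Col1a1, Col1a2, Col3a1, Des and Pdgfrb.

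Of 9 neutrophil markers 7 were higher, and of 6 platelet markers 3, with none lower in either list. Among all features 5.28% were called as higher. In M limma called no marker of either list, where 1.09% of all features were called. There 8 neutrophil and 3 platelet markers had an unadjusted p under 0.05. The means of both lists did not overlap between genotypes (4.33 to 4.97 against 5.40 to 8.96, and 4.77 to 4.90 against 5.13 to 6.53). Of 10 endothelial markers 3 were higher and 2 lower, where 9.75% of all features were called. Pecam1 was at 1.14 ± 0.16, Cdh5 at 0.76 ± 0.13 and Kdr at -0.63 ± 0.10. The number of endothelial markers called lower was 4 after quantile normalization, with arrays centred on either median or without WT F 27, and 3 with dim features left out or without WT M 33, KO M 19 or KO F 13. Of 5 lymphocyte, 5 cholangiocyte and 7 hepatocyte markers limma called none over both letters, where 9.75% of all features were called. At an unadjusted p under 0.05 were 0, 1 and 0 of them. All 5 lymphocyte markers and 4 of the cholangiocyte markers lay within the negative controls on all arrays. Of the hepatocyte markers 5 were at the ceiling of 19.93, where no difference can show. These lists therefore say little on whether those cell types differed. Among cholangiocyte markers 1 was called lower after quantile normalization or with arrays centred on either median, and 1 higher without KO F 40. The part of these cell types in the differences of Vim and Tgfb1 was not tested.

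**Figure D4:**
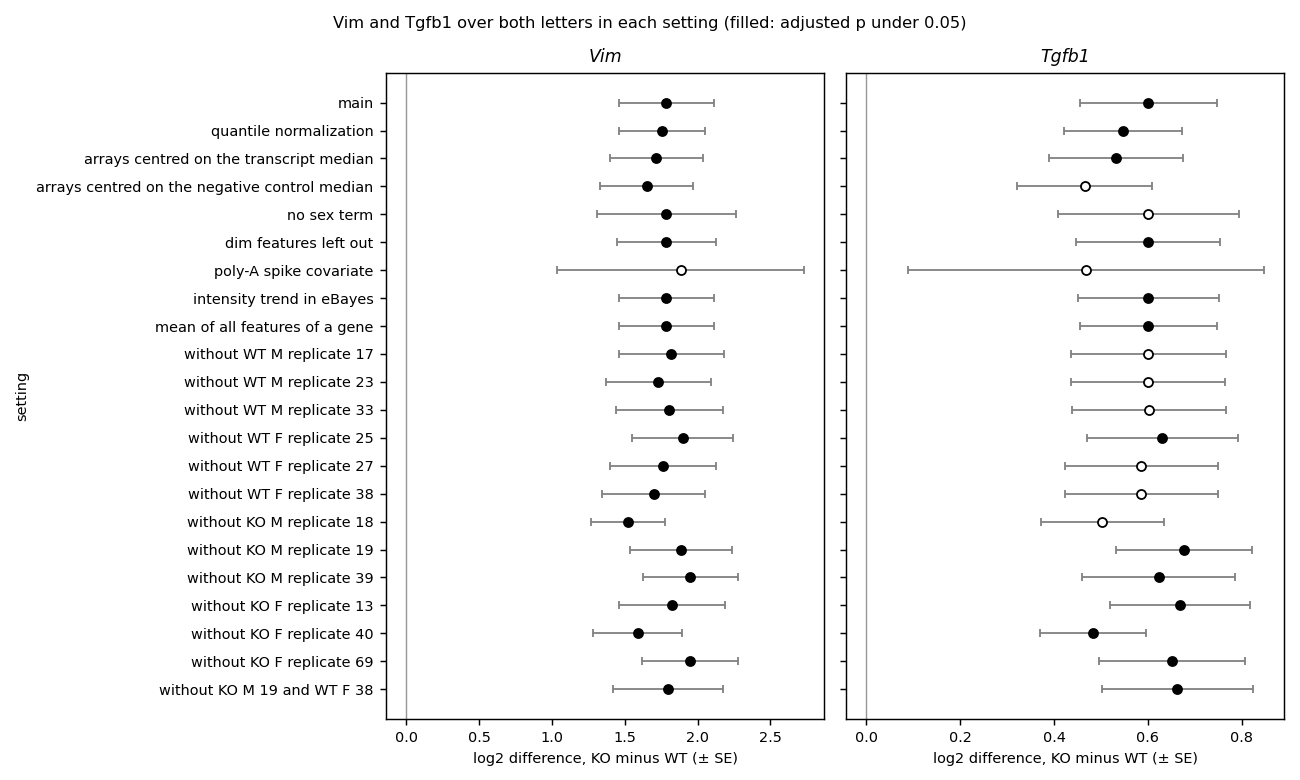
Difference of Vim and Tgfb1 over both letters, KO minus WT on the log2 scale with SE (horizontal axes), in the main fit and in each other setting or with mice left out (vertical axis); filled points have an adjusted p under 0.05. All points lie above 0; Vim is open only with the poly-A covariate, and Tgfb1 is open in 9 settings.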

How the data were processed

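The deposited table holds 1 log2 signal per feature and array, made by the authors; per the submitters' processing notes the tool was Transcriptome Analysis Console. Background correction, array normalization, probe summarisation and the annotation's genome build are steps not given in the sources used here. Every array shares a ceiling of 19.93, reached by 172 features on all 12 arrays. The 6732 control features stayed out of all tests. Of 65956 transcript features, 30604 carry 1 gene symbol, 2146 several and 33206 none in the platform table; 827 old symbols were updated through gene IDs.

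Means of the 4 groups were fitted over the 12 arrays by lmFit and eBayes of limma, version 3.58.1, under R 4.3.3, with 8 residual degrees of freedom, without a filter on dim features. P-values were adjusted by Benjamini-Hochberg over the 65956 features, with a threshold of 0.05. Named are the 10 genes, the 3 genes of smallest p in each list over both letters, the 2 genes most like Vim and Reln, and genes marked as picked later. The lists hold 216 genes, 202 with a feature. The 10 genes and the lists were chosen with earlier results of these data known. The fit was tested on simulated data. Over both letters it called 46% of features changed by 0.5 on the log2 scale and 94% of those changed by 1. A difference of 0.5 or less can therefore go uncalled. Alternatives were other scalings of the arrays, no term for the letter, dim features left out, a poly-A covariate, an intensity trend, the mean of all features of a gene, and mice left out.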

Additional observations from a re-analysis of the deposited data

Results flagged for a closer look

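The difference in Reln had opposite signs in the letters, and neither was called (limma adjusted p = 0.135 in F and 0.32 in M). The KO effect in F minus that in M was 0.89 on the log2 scale, and every KO F mouse lay above the WT F mean (7.53) while every KO M mouse lay below the WT M mean (7.78). In M the genotypes overlapped, with KO M 18 (7.64) above WT M 17 (7.48). The difference between the letters was tested with limma and was not called (adjusted p over all features = 0.429).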

How the results depend on the processing

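Over 592 values of the 10 genes in other settings, 520 kept sign and call, 26 lost the call, none gained one, and 46 changed sign, all of differences that were not called. Most of the genes are dim, which limits their sizes. No paired analysis was possible because no animal number occurs in more than 1 group.

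The number of the 10 genes called over both letters (2) was 1 with arrays centred on negative controls or with no term for the letter, 0 with the poly-A covariate, and 1 to 2 without single mice. In F (2) it was 1 with arrays centred on the transcript or negative control median, 0 with the poly-A covariate or without KO M 19 and WT F 38, and 0 to 2 without single mice. With the poly-A covariate, a level that itself differed with genotype, 3 features in all were called. In M and for the difference between the letters the number was 0 in every setting. With no term for the letter, Tgfbi, Tgfbr2, Smad3, Fyn, Grb2, Kdr and Cdh5 were also not called.

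Signs turned as follows. After quantile normalization Des was at -0.084 and Reln at -0.0041 over both letters, Timp1 at -0.033 in F, and Col1a1 at -0.067 and Col1a2 at -0.056 in M. With arrays centred on the transcript median these were -0.055, -0.041, -0.078, -0.022 and -0.0087. Centred on negative controls, where the median of all features moved from 0.05 to -0.09, Col3a1, Des and Reln were at -0.026, -0.12 and -0.11 over both letters, Des and Timp1 at -0.057 and -0.17 in F, and Col1a1 and Col1a2 at -0.067 and -0.053 in M. With the poly-A covariate Col3a1 and Reln were at -0.090 and -0.046 over both letters, Timp1 at -0.15 in F, and Col1a1, Col1a2 and Pdgfrb at -0.049, -0.087 and 0.23 in M. Without KO M 19 and WT F 38, Des was at -0.044 over both letters and -0.053 in F, and Col3a1 at 0.085 in M. Without single mice, Reln ran from -0.047 to 0.11, Des from -0.29 to 0.17 and Col3a1 from -0.0032 to 0.17 over both letters. Des ran from -0.49 to 0.44 in F. In M, Col1a1 ran from -0.011 to 0.060, Col1a2 from -0.026 to 0.099, Col3a1 from -0.087 to 0.085, Acta2 from -0.32 to 0.14 and Pdgfrb from -0.11 to 0.032. The causes were not tested.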
